A study of Mus musculus with 5 samples.

Results

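The genes described here carry the signal from the parathyroid hormone receptor to cyclic AMP and back down again. They were chosen by platform gene symbol as Pth1r, its ligand gene Pthlh, the G protein gene Gnas, the adenylyl cyclases Adcy3, Adcy6 and Adcy9, the phosphodiesterases Pde4b and Pde4d, and the feedback genes Rgs2 and Crem. Of these 10 genes, 9 had a row among 23185 named genes, and Pthlh is not analysed here. The RNA came from Ocy454, an osteocytic cell line from mouse long bone whose temperature-sensitive T antigen drives growth at lower temperature, and 5 clones grown from single cells were put on Affymetrix arrays. Of 37 clones screened for Sost, which encodes the Wnt inhibitor sclerostin, 12H and 15H are the high-SOST group (n = 2) and 4L, 9L and 24L the low-SOST group (n = 3). All 5 clones were untreated and grew in medium with 10% serum and 1% antibiotic. They were cultured for 7 days at 37 °C, and no clone received parathyroid hormone. Each clone is 1 culture on 1 array, so a group difference holds differences between clones as well as between cultures.

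PTH1R is a class B receptor for parathyroid hormone (PTH) and PTH-related protein, and osteoblasts and osteocytes are its main bone targets. The bound receptor activates the stimulatory G protein encoded by Gnas, adenylyl cyclases then make cyclic AMP, and cyclic AMP activates protein kinase A, which phosphorylates CREB family factors. Phosphodiesterases break cyclic AMP down, RGS proteins shorten G protein signals and short repressor forms of CREM shut off cyclic AMP responsive promoters, and several of these genes are themselves induced by PTH. In osteocytes PTH lowers Sost through this pathway.

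Values are RMA expression on the log2 scale, where 1 unit is a 2-fold step, and differences are the mean of high-SOST minus that of low-SOST clones. Array medians lay between 4.13 and 4.16 over the named genes, and 5 arrays limit the precision of every value. As a mark of low signal, the 95th percentile of 1354 receptor genes of smell (olfactory and vomeronasal), which bone cells hardly use, lay between 3.37 and 3.56. Probe sets differ in how strongly they respond, so this mark is a guide and levels of different genes are not ranked. Sost itself differed little on these arrays, at 4.08 in 12H and 3.92 in 15H and between 3.78 and 3.91 in the low-SOST group. Of 7 osteocyte markers, Dmp1 and Phex exceeded the mark only in 12H and 15H, Mepe and Fgf23 in no clone, and Pdpn was lower in the high-SOST clones (8.35 and 8.06 against 8.97 to 9.20). Dkk1, another of the 7, was higher in the high-SOST clones (6.71 and 8.17 against 3.46 to 3.93). Of 8 markers of blood and endothelial cells, 5 lay under the mark in every clone, among them Ptprc, Cdh5 and Pecam1, while Cd68 (5.27 to 6.97) and Csf1r (3.57 to 3.59) exceeded it in all 5. Of 5 adipocyte markers, 3 lay under it in every clone, Adipoq included, while Pparg (4.26 to 5.49) and Plin1 (4.08 to 4.19) exceeded it in all 5. Of 7 chondrocyte markers, 4 exceeded it in every clone, Sox9 (7.02 to 7.95) included, and 2 in none. Of 6 tendon and fibroblast markers, 4 exceeded it in every clone, Scx (7.13 to 8.61) included, and 2 in none. Scx and Mkx were lower in the high-SOST clones without overlap between groups, and Pdgfra was higher. That is 3 of the 6 (50.0%), against 16.0% of all genes. In bulk RNA, fewer cells that express a gene and less RNA per cell cannot be told apart.

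Pth1r (Entrez gene 19228, chromosome 9) differed more between clones than any other gene of the set. Its level was 9.20 in 12H, 8.99 in 15H, 7.69 in 9L, again 7.69 in 24L and 4.23 in 4L. Both high-SOST clones lay above all low-SOST clones, and 4L stood far below the other 4. The step from 9L down to 4L was 3.46 or 11.0-fold, while the step from 15H down to 9L was 1.30. The range over the 5 clones was 4.96, or 31.2-fold, wider than in all but a few genes (percentile 99.9 of the named genes). A 4-fold or wider range was seen in 2.98% of all genes, and among the 9 measured genes in Pth1r and Rgs2.

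The high-SOST clones averaged 9.09 ± 0.15 (SD, n = 2) for Pth1r, the low-SOST clones averaged 6.54 ± 2.00 (SD, n = 3), and the means differed by 2.55 (SE 1.34, 95% interval -1.30 to 6.40) or 5.87-fold. The difference did not pass limma (adjusted p = 0.737), and the exact permutation test over the 10 ways to split the clones gave p = 0.3, two-sided, where 0.1 is the smallest it can give. Without 4L the difference was 1.40 (SE 0.09, limma adjusted p = 0.586, unadjusted p = 0.00123), with the remaining low-SOST clones at the same value. Such ties are common here, since in 56.9% of probe sets at least 2 arrays hold the same deposited value.

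Of 5 genes for ligands and receptors of the PTH family, 4 were measured and 1 of them, Pth1r, was without overlap between groups, against 16.0% of all genes. Pth, the hormone's own gene, read between 1.42 and 1.74, under the mark for low signal in all 5 clones.

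Osteoblast markers as a group were also lowest in 4L and highest in the high-SOST clones. The mean log2 level of the 8 markers measured of 11 lay at 10.32 and 9.88 in 12H and 15H, at 8.75 and 8.57 in 9L and 24L and at 6.14 in 4L. Ibsp and Sp7, which encode bone sialoprotein and osterix, read 2.24 and 2.68 in 4L, under the mark for low signal, and 6 of the 8 exceeded the mark in every clone. Of the 8 markers, 7 were lowest in 4L and 7 were highest in 12H. Bglap was lowest in 24L (3.45, against 3.74 in 4L). Col1a1 was highest in 24L (11.64), and Col1a2 in 24L (11.05) exceeded 15H (10.96). The 7 muscle markers averaged 5.23 to 5.25 in high-SOST clones, 5.39 in 4L and 6.16 to 6.24 in the other low-SOST clones. Acta2, Tagln and Cnn1, of smooth muscle, were lower in the high-SOST clones without overlap, and Des was higher (5.83 and 6.16 against 4.05 to 5.47). Myh11, also of smooth muscle, did not follow them, at 4.44 and 4.31 against 4.24 to 4.31, with overlapping groups. The part of these cell states in the Pth1r values was not tested.

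**Figure D1:**
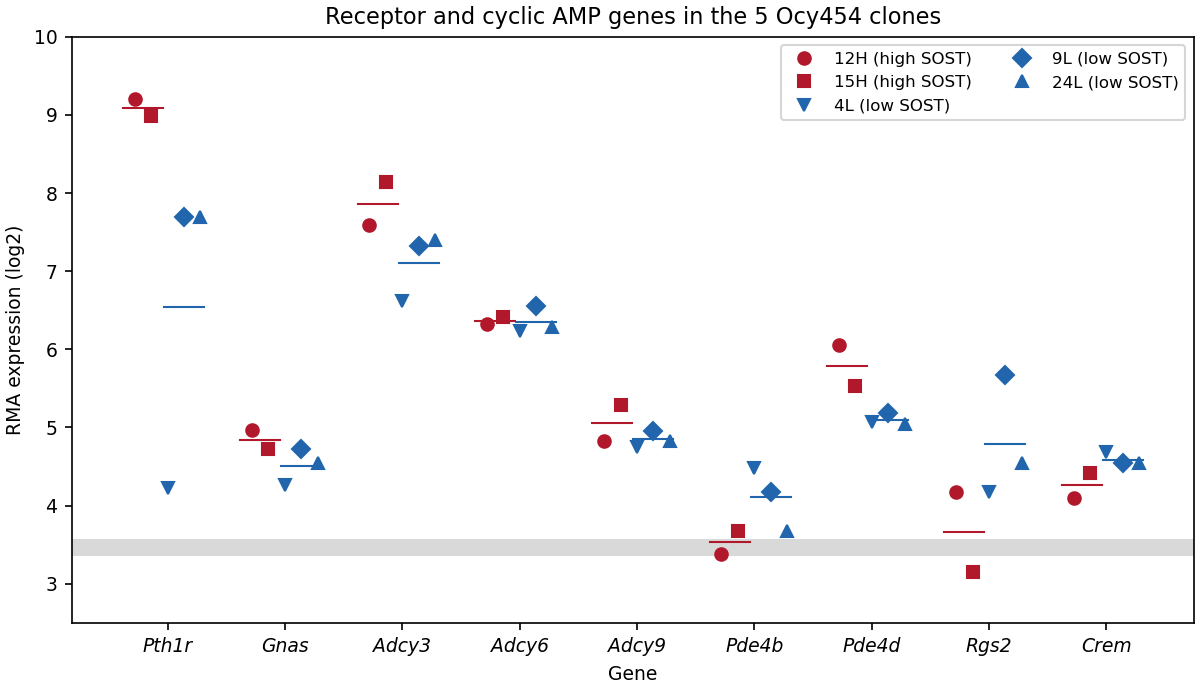
RMA expression (log2, vertical axis) of the 9 measured genes in each clone, red for high SOST and blue for low SOST, with a marker shape for each clone and short lines at group means. The grey band spans the 95th percentiles of the olfactory and vomeronasal receptor genes (3.37 to 3.56); Pth1r spreads from 4.23 in 4L to 9.20 in 12H, while Adcy6 stays between 6.23 and 6.55.

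The start regions of the receptor and of feedback genes are shown because cyclic AMP acts on promoters through the cyclic AMP response element. Windows of 250 bases before annotated starts came from RefSeq (GRCm38.p6), and were searched on both strands for the full palindrome TGACGTCA and for its core TGACG, which is CGTCA on the other strand and lies inside the palindrome. The core was present in 17.8% of 32851 such windows and the palindrome in 1.55%. Windows were found for 7 of the 9 genes, 16 windows in all, and 7 windows of 5 genes (Pth1r, Gnas, Adcy9, Pde4b and Rgs2) held the core. Among the 4 Gnas windows 2 overlap and share 1 core. No window of the 7 genes held the palindrome, which says only that these letters are absent from these windows. Each sequence below reads 5′ to 3′ on the gene's strand and ends just before the start, with the core or palindrome in capitals.
Pth1r, chr9:110747146-110747395, minus strand: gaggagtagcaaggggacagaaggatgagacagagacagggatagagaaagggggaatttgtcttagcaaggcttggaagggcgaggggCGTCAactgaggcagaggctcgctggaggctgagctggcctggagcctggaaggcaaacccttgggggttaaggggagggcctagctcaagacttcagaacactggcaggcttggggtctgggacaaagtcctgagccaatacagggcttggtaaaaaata
Rgs2, chr1:144004150-144004399, minus strand: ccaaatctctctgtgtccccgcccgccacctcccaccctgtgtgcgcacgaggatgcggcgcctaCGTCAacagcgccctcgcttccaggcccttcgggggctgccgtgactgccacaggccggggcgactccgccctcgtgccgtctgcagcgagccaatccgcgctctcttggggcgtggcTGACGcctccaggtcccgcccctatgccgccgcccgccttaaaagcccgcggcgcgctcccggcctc
Pde4b, chr4:102421305-102421554, plus strand: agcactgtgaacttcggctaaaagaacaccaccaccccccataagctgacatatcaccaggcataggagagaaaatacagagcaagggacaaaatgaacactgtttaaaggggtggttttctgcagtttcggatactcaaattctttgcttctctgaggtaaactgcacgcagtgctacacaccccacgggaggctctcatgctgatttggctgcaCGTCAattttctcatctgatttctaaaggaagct
Dusp1, chr17:26508473-26508722, minus strand: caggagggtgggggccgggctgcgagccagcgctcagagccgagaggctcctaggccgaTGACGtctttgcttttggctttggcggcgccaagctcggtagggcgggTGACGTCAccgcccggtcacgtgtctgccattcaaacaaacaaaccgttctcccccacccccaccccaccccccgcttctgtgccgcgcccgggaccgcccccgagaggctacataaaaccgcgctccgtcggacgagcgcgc

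Pth1r has 3 annotated starts in this table, and only the window shown, which belongs to the most upstream of them, held the core, 161 bases before the start. The array has 1 probe set for the gene and does not tell transcripts from the 3 starts apart. Rgs2 had a core at 185 and at 67 bases before its start, and Pde4b had 1 at 34 bases before 1 of its 4 starts. Dusp1, which encodes a phosphatase that switches off MAP kinases and belongs to the target genes described further on, had the palindrome. No window found for any other target gene held it. The windows of Jun, Mmp13, Wnt4, Ptgs2, Tnfsf11, Fosl2, Lif, Lrat and Vdr held neither it nor the core. Those of Fos, Fosb, Junb, Nr4a1, Nr4a2, Nr4a3, Il6, Nfil3, Per1 and Ppargc1a held the core, as did 1 window of Cited1.

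Gnas (Entrez gene 14683, chromosome 2), the stimulatory G protein alpha subunit, read 4.97 in 12H and 4.72 in 15H, and 4.27, 4.72 and 4.54 in 4L, 9L and 24L. The groups touched, since 15H and 9L had the same value, and 4L was lowest. The difference of 0.33 (SE 0.17, 95% interval -0.16 to 0.83) did not pass limma (adjusted p = 0.737). Gnas is an imprinted locus with several starts, which its probe set does not separate.

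Among 24 G protein subunit genes measured, 0 passed over all genes, and the median difference was 0.00, as over all genes (0.00). Without overlap between groups were 3 of the 24 (12.5%), against 16.0% of all genes. Gna11, a Gq class subunit through which the receptor can activate phospholipase C, read 9.37 and 9.49 against 8.78 to 9.10 (difference 0.49, SE 0.12). Gnb5, a beta subunit that pairs with R7 class RGS proteins, differed by -0.55 (SE 0.16). Gng11, a gamma subunit, had the widest range, from 2.70 in 4L to 6.26 in 12H, with 3.81 in the other high-SOST clone, so its groups overlapped. Gnao1, an inhibitory class alpha subunit, was lowest in 9L at 6.44 and lay between 7.35 and 7.59 in the other clones.

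Of the cyclases, which make cyclic AMP from ATP, Adcy3 varied most. Adcy3 (Entrez gene 104111, chromosome 12) read 7.59 in 12H and 8.14 in 15H. In the low-SOST group it was 6.62 in 4L and higher in 9L (7.32) and 24L (7.4). The groups did not overlap, but 12H stood closer to 24L than to 15H, and the SD within groups was 0.39 and 0.43. Its difference was 0.75 (SE 0.34, 95% interval -0.24 to 1.74), 1.68-fold, with limma adjusted p = 0.737. Adcy6, a calcium-inhibited cyclase, read 6.32 and 6.41 in the high-SOST and 6.23, 6.55 and 6.29 in the low-SOST clones. Its difference of 0.01 (SE 0.12) has a 95% interval of -0.33 to 0.35, the narrowest bounds among the 3 cyclases. Adcy9, a cyclase little affected by forskolin, read 4.83 and 5.29 against 4.75, 4.95 and 4.83, with 15H highest and the other 4 clones close together (difference 0.22, SE 0.17).

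The cyclase family as a whole had 10 members measured, and 6 of them (Adcy1, Adcy2, Adcy4, Adcy5, Adcy8 and Adcy10) lay under the mark for low signal in all 5 clones. Adcy7 was the fourth cyclase above the mark and read 5.16 and 4.83 in high-SOST against 5.55, 5.04 and 5.32 in low-SOST clones. None of the 10 had an adjusted p under 0.05, and 0 had an unadjusted p under 0.05, against 5.78% of all genes. From the receptor to the cyclases, Pth1r, Gnas, Adcy3, Adcy6 and Adcy9 all had their lowest value in clone 4L. That is 5 of the 9 genes (55.6%), while 4L was the single lowest clone in 19.2% of all genes. In the wider lists 4L was the single lowest in 5 of the 10 cyclases (50.0%), while Adcy7 was highest there. Of the 24 G protein subunit genes 4L was the single lowest in 5 (20.8%) and 9L in 7 (29.2%). For Adcy6 and Adcy9 the gap from 4L to the next clone was only 0.06 and 0.08.

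Phosphodiesterases degrade cyclic AMP, and the PDE4 members here differed in direction. Pde4d (Entrez gene 238871, chromosome 13) read 6.06 in 12H and 5.53 in 15H, while 4L had 5.07, 9L 5.19 and 24L 5.04. The low-SOST clones lay close together (SD 0.08), and both high-SOST clones exceeded them. The difference was 0.69 (SE 0.18, 95% interval 0.16 to 1.22), 1.62-fold. It did not pass over all genes (limma adjusted p = 0.737, unadjusted p = 0.0228). No other gene of the set had an unadjusted p under 0.05, and 5.78% of all genes did. Without 12H the difference was 0.43, and without 15H it was 0.96 (limma adjusted p = 0.336 and 0.0915). Without 4L, 9L or 24L the unadjusted p of limma rose to between 0.0595 and 0.0789 (adjusted p = 0.693 to 0.732).

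Pde4b (Entrez gene 18578, chromosome 4), a PDE4 gene induced by cyclic AMP in many cells, read 3.38 and 3.67 in high-SOST clones and 4.48, 4.17 and 3.67 in low-SOST clones. Its groups met at the equal values of 15H and 24L, and 4L was highest. In 12H it lay under the mark for low signal, and the difference was -0.58 (SE 0.29, 95% interval -1.41 to 0.25). Of 16 cyclic AMP phosphodiesterase genes, 8 lay under the mark in every clone, 0 passed over all genes, and the median difference was 0.05. Pde3b, an insulin-activated phosphodiesterase, differed by -1.0 (SE 0.55), with 12H at 4.55 and 15H at 6.14 against 6.19 to 6.56 in the low-SOST clones, so that 12H alone stood apart. Pde2a, which cyclic GMP stimulates, ranged from 3.91 in 24L to 5.93 in 9L, both low-SOST clones.

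Rgs2 (Entrez gene 19735, chromosome 1), a PTH-induced brake on Gq class G proteins, was the second most variable of the 9 genes. Its level was 4.17 in both 12H and 4L, 3.15 in 15H, 5.67 in 9L and 4.54 in 24L. Clone 9L was highest and 15H lowest, with 15H under the mark for low signal, and the groups met only at the equal values of 12H and 4L. The difference was -1.13 (SE 0.63, 95% interval -2.93 to 0.66), with high-SOST clones 2.2-fold lower by mean (limma adjusted p = 0.737). That order is unlike Pth1r's, since 4L, lowest for the receptor, was level with 12H for Rgs2.

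Of 21 RGS genes, 10 lay under the mark in every clone and 6 above it in every clone. Rgs17, which acts on inhibitory G proteins, had the smallest p of the family. It read 3.79 and 3.44 in high-SOST and 4.45, 4.82 and 4.54 in low-SOST clones (difference -0.99, SE 0.18, unadjusted p = 0.00634, adjusted p = 0.624 by limma). Rgs14, an RGS protein that also binds inhibitory alpha subunits, differed by 0.43 (SE 0.19). The family's median difference was 0.03 and 0 members passed.

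Crem (Entrez gene 12916, chromosome 18), which encodes activators and the cyclic AMP induced repressor ICER, read 4.10 in 12H and 4.42 in 15H, and 4.68, 4.54 and 4.55 in 4L, 9L and 24L. The high-SOST clones lay below all low-SOST clones, with 15H close to 9L. The difference was -0.33 (SE 0.12, 95% interval -0.69 to 0.02), 1.26-fold, with limma adjusted p = 0.737. The probe set does not separate ICER from the activator forms. Without 12H the difference was -0.17 and without 15H it was -0.50.

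The other 10 CREB family and coactivator genes included 1 with a wide difference. Creb3l1, an endoplasmic reticulum bound factor that drives collagen genes in osteoblasts, read 10.5 and 9.87 in high-SOST clones against 7.72, 8.65 and 9.39 in low-SOST clones (difference 1.61, SE 0.60). Creb5 was highest in 4L at 6.80 and lay between 5.83 and 6.05 in the other clones. All 11 genes of the list exceeded the mark in every clone, their median difference was -0.02, and 0 passed limma over all genes.

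Over the 9 measured genes, 6 had a positive and 3 a negative difference. None passed limma at an adjusted p under 0.05, where 0.0% of all genes did. Without overlap were 4 of the 9, against 16.0% of all genes. Pth1r, Adcy3 and Pde4d had both high-SOST clones on top, like 8.26% of all genes, and Crem had both at the bottom, like 7.75%. Pth1r alone was also at least 2-fold apart, against 1.85% of all genes. Rgs2 joins it where the tie of 12H and 4L is broken, with arrays shifted to 1 median (1.88% of all genes) or quantile normalized again (1.86%), and without 4L (1.83%). Without 12H, Adcy3 and Rgs2 both join it (2.01%), and without 15H, 9L or 24L Pth1r is again alone (3.54%, 2.93% and 2.12%). With 1 clone left out, unadjusted p-values under 0.05 were found for Adcy9 and Pde4d without 12H (9.08% of all genes), Crem and Pde4d without 15H (13.4%), Pth1r without 4L (5.84%), no gene of the set without 9L (7.17%) and Pde4b without 24L (5.49%).

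**Figure D2:**
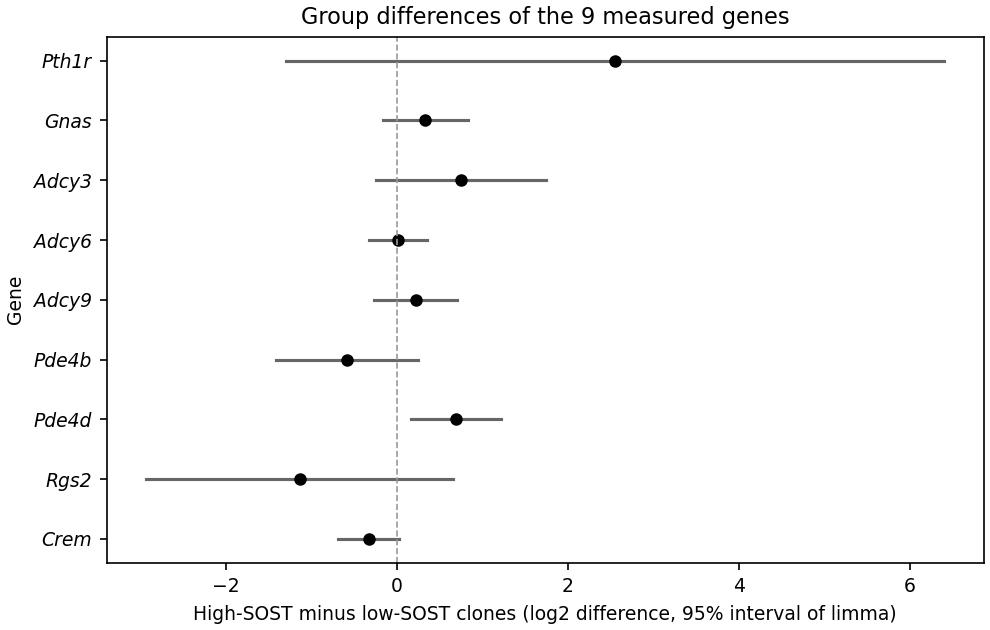
Difference of high-SOST minus low-SOST clones (log2, horizontal axis) for the 9 measured genes, as points with the 95% interval of limma from 2 against 3 clones. The interval of Pde4d (0.16 to 1.22) lies to the right of 0, before adjustment for the genes tested, and the other 8 include 0; that of Pth1r runs from -1.30 to 6.40.

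Protein kinase A is the main sensor of cyclic AMP, a complex of regulatory and catalytic subunits held in place by anchor proteins and blocked by PKI inhibitors. Of 18 such genes, 11 (61.1%) had their highest value in clone 4L, where Pth1r was lowest, and 4L was the single highest clone in 20.1% of all genes. Pkia, an inhibitor of the catalytic subunit, spanned 4.29, with 4L highest, 24L next at 3.56 and the other 3 clones at 2.21 to 2.52, under the mark. The regulatory subunit gene Prkar1b ran the other way, at 7.54 and 7.72 in high-SOST clones, 6.92 and 6.91 in 9L and 24L, and 4.88 in 4L (difference 1.40, SE 0.79). Prkar2b, another regulatory subunit, was lower in the high-SOST clones, at 5.98 and 6.56 against 7.46, 7.00 and 7.37 (difference -1.0, SE 0.25). Neither passed limma (adjusted p = 0.737 for both), and 5 of the 18 (27.8%) had no overlap between groups, against 16.0% of all genes.

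None of the other effectors of cyclic AMP, and none of the genes that switch off or hold the receptor, passed limma over all genes at an adjusted p under 0.05. Rapgef3, the exchange factor EPAC1, read 4.00 in 12H and 5.15 to 5.45 in the other 4 clones, 15H included. Hcn3, of the HCN channel family, lay under the mark in every clone (2.93 to 3.29). Of 8 other effectors measured of 11 listed, 0 were without overlap, against 16.0% of all genes. Of 10 desensitization and scaffold genes measured of 12, 3 (30%) were without overlap, against the same 16.0%. Ramp1, a partner of calcitonin family receptors, differed by 0.86 (SE 0.27), with 5.35 and 4.92 against 3.95 to 4.63. Grk5, a kinase that marks activated receptors for arrestin, differed by -0.46 (SE 0.17). Slc9a3r2, a PDZ scaffold that binds the receptor, differed by 0.05 (SE 0.32).

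Genes known to be induced by PTH or cyclic AMP differed in both directions, with more negative than positive differences. The list had 28 genes measured of 29, of which Rgs2, Pde4b, Pde4d and Crem are described above. None passed limma over all genes, 18 had a negative and 10 a positive difference, and the median was -0.31 against 0.00 over all genes. Without overlap were 12 of the 28 (42.9%), 5 higher and 7 lower, against 16.0% of all genes, and 6 were also at least 2-fold apart (21.4%), against 1.85%. Leaving out the 4 genes described above, 10 of 24 (41.7%) were without overlap and the median was -0.24.

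Among the genes with lower values in the high-SOST clones were Gem and Has2. Gem, a small GTPase that restrains calcium channels, read 4.83 in 12H, 5.29 in 15H, 6.18 in 9L and 24L and 6.5 in 4L (difference -1.23, SE 0.20, limma unadjusted p = 0.00427, adjusted p = 0.602). Has2, a hyaluronan synthase, read 3.81 and 3.98 against 5.14, 5.71 and 6.51 (difference -1.89, SE 0.47). Jun, an AP-1 subunit, and Dusp1 were chosen with their values known, and their differences were -1.19 (SE 0.29) and -1.17 (SE 0.57). Dusp1 was highest in 4L at 9.25, and 15H at 7.65 lay just below 24L at 7.73.

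Higher in the high-SOST clones were Mmp13 and Wnt4. Mmp13, the collagenase that PTH induces in osteoblasts, read 3.73 in 12H and 5.81 in 15H, and 2.56, 3.23 and 3.00 in 4L, 9L and 24L, under the mark for low signal in all 3 low-SOST clones. Its difference was 1.84 (SE 0.73), with 15H far above 12H. Wnt4, a Wnt ligand, read 7.39 and 6.64 against 5.53, 6.25 and 5.62 (difference 1.21, SE 0.37). Nr4a1, Il6 and Tnfsf11 were also chosen with their values known. The nuclear receptor Nr4a1, an early PTH response gene, was highest in 9L at 8.20 and next in 12H at 7.27, with overlapping groups (difference -0.39, SE 0.79). Il6 and Tnfsf11, cytokine genes that PTH induces in osteoblasts, differed by 0.01 and 0.02, with Il6 under the mark in every clone and Tnfsf11 just above it. The median of the list depends on single clones, at -0.15 without 12H, -0.11 without 15H and -0.15 without 9L. Without 12H 3 genes were 2-fold apart and not overlapping, where 2.01% of all genes were, and without 15H 20 had no overlap, where 46.1% of all genes had none.

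**Figure D3:**
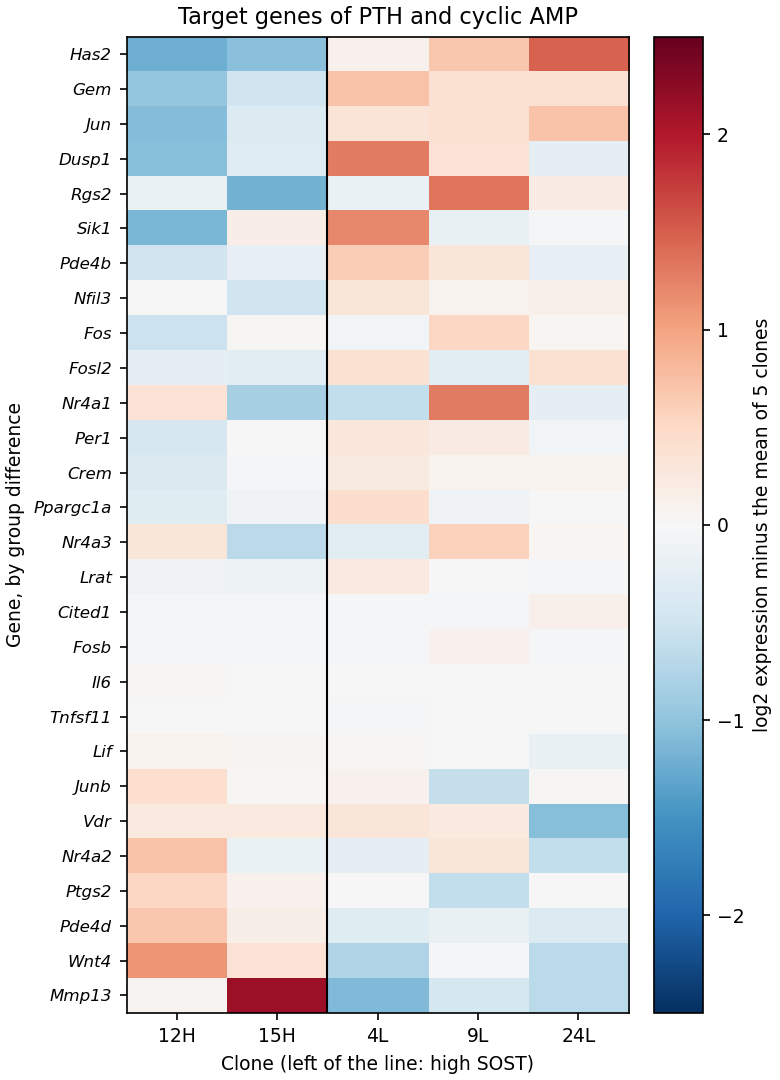
Log2 expression minus the mean of the 5 clones (colour scale, red higher and blue lower) for 28 target genes of PTH and cyclic AMP, rows ordered by group difference and the high-SOST clones left of the line. Has2, Gem and Jun are blue in 12H and 15H and not in 4L, 9L or 24L, Mmp13 is deep red in 15H alone, and the middle rows such as Il6 and Fosb hardly vary.

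Other receptors that act on cyclic AMP were mostly dim. Of 15 further receptors coupled to the stimulatory G protein or named with them, measured of 20, 8 lay under the mark in every clone and 0 passed. Lgr4, an R-spondin receptor also reported to raise cyclic AMP, differed by 0.31 (SE 0.09), and Vipr1, a receptor for vasoactive intestinal peptide, by 0.11. Calcrl, the calcitonin receptor-like receptor, exceeded the mark in 12H alone, at 3.70, and lay between 2.29 and 2.45 in the other clones. Ptger4, a prostaglandin E2 receptor, read highest in 9L at 5.02 with overlapping groups (difference -0.41, SE 0.28). Of 10 receptors that lower cyclic AMP or couple to other G proteins, measured of 12, 0 were without overlap, against 16.0% of all genes. Chrm2, a muscarinic receptor, lay under the mark in every clone, and Sstr2, a somatostatin receptor, lay between 3.89 and 4.08. S1pr1, a sphingosine-1-phosphate receptor coupled to inhibitory G proteins, read 7.30 in 12H, 6.88 in 15H, 9L and 24L, and 4.51 in 4L. Cnr1, a cannabinoid receptor, read 6.74 in 12H and 3.75 to 4.37 elsewhere.

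Downstream of the receptor in osteocytes, Sik1, a salt-inducible kinase gene that cyclic AMP induces, read 4.85 in 12H and 7.19 in 4L with overlapping groups, Sik2 and Sik3 differed by 0.06 and 0.03, and Mef2c, a MADS box factor that binds a distal enhancer of Sost, read 10.1 and 9.73 in 12H and 15H, 9.14 and 8.62 in 9L and 24L, and 6.80 in 4L.

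The genes nearest to Pth1r were found by the root mean square distance between profiles over the 5 clones, each centred on its own mean, which is a description over 5 points that share their arrays. Gene models without a name of their own were passed over. The nearest were Insc, an adaptor of spindle orientation (distance 0.338), Tmem119, a membrane protein of osteoblasts (0.349), and Pdgfra, a platelet-derived growth factor receptor (0.357). Next came Tle5, a Groucho family member (0.403), Alpl, the bone alkaline phosphatase (0.421) and Pcsk6, a proprotein convertase (0.428). Tmem119 read 10.3 and 9.58 in high-SOST clones, 9.35 and 8.91 in 9L and 24L, and 5.17 in 4L. Pdgfra read 9.21 and 8.46, then 6.70 and 7.60, and 3.79 in 4L. All 6 share the drop in 4L, with ranges from 4.49 to 5.42, which follows from their choice by distance to Pth1r. Alpl is also among the osteoblast markers above, and Pdgfra among the tendon and fibroblast markers. With each profile also divided by its standard deviation, a measure added after seeing the data, 0 of the 6 stayed among the nearest 6, which were then Gpr149, Kctd1, Oaz1, Clcn4, Lsmem2 and Fzd8, with ranges of 0.36 to 2.07.
Of the other 8 genes of the set, Adcy3 lay nearest to Pth1r (1.350) and Pde4b farthest (2.134). Over all named genes, these distances had ranks 339 and 22499.

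**Figure D4:**
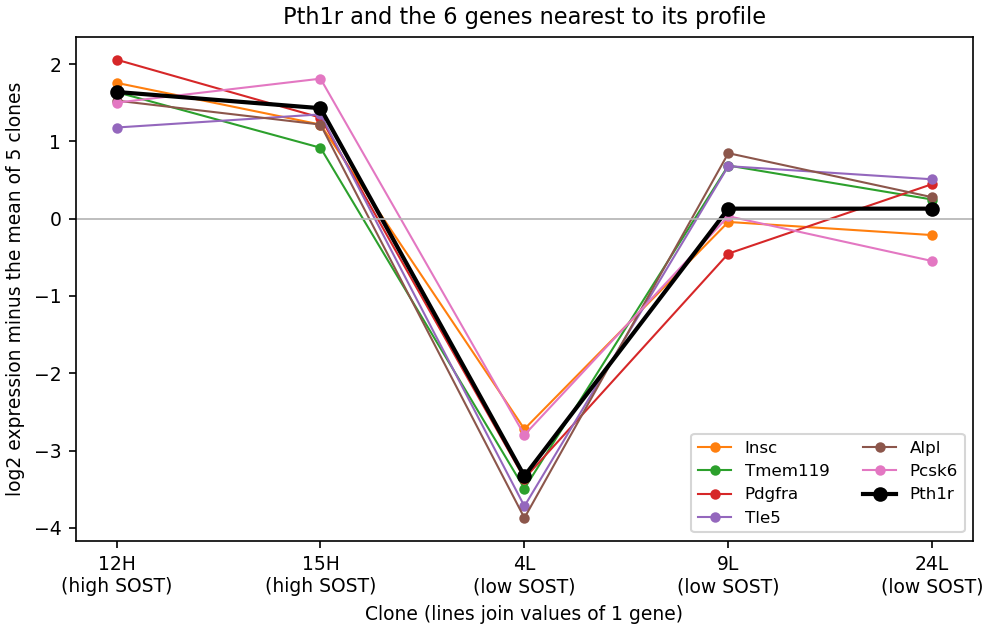
Log2 expression minus each gene's mean over the 5 clones (vertical axis) for Pth1r (black) and the 6 genes nearest to its profile (colours), with lines that join the values of 1 gene across clones. All 7 genes are lowest in 4L and above their mean in 12H and 15H, a likeness that follows from the choice of the 6 by distance.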

How the data were processed

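Values are the deposited log2 RMA signals, 1 per probe set and clone. The submitters' notes list affy (version 1.36.1), R (2.15.1) and RMA, with no word on their order; the chip definition, any filter and the build were not given in the sources used here. RMA gives all arrays nearly the same distribution, so a change common to most genes does not show. Of 25206 probe sets, 23185 had 1 gene symbol in the platform table; it listed none with several, and the other 2021 are unnamed here and were left out. Symbols were updated by Entrez number through RefSeq (GRCm38.p6).

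Groups follow the labelled SOST level. The test was limma 3.58.1 under R 4.3.3, with lmFit and eBayes without trend (3 residual degrees of freedom, two-sided), p-values adjusted over 23185 genes (Benjamini-Hochberg) and called under 0.05. With 1 culture and 1 array per clone, p-values rest on a spread between clones that also holds differences between cultures and arrays. The fit was tested on simulated data. The genes and the 12 pathway lists were chosen with earlier results of these data known. Named were all measured genes of the set, from each list up to 4 genes at least 2-fold apart without overlap or else the 2 with the smallest p, the 2 with the widest range, and the 6 nearest to Pth1r; others are said to be chosen with values known. Alternatives were a filter on the dimmest 30% of genes, 2 scalings, 2 variance models, array weights, an adjusted p under 0.1 and leaving out each clone. Plots used matplotlib 3.10.9 (Python 3.11.15).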

Additional observations from a re-analysis of the deposited data

How the results depend on the processing

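Under every alternative run, 0 of the 9 genes and 0 of the 171 distinct genes on the pathway lists passed limma at an adjusted p under 0.05; among all genes 2 passed with arrays shifted to 1 median, and 3 at an adjusted p under 0.1. The Pth1r difference kept its sign, from 1.40 without 4L to 3.13 without 9L, with adjusted p from 0.586 to 1.0. The number of the 9 genes at an unadjusted p under 0.05 ran from 0 to 2 with a clone left out, against 1. Those 2-fold apart without overlap numbered 2 with arrays shifted to 1 median, also 2 after a second quantile normalization, and 1 to 3 with a clone left out, and the pathway genes so called ran from 8 without 12H to 19 without 15H, against 11, while the share of all genes was 2.01% and 3.54%, against 1.85%. With a clone left out the sign of Adcy6 changed (-0.05 to 0.11), as did that of Adcy9 (-0.01 to 0.44); the other 7 genes kept theirs in every alternative. Of 132 alternative list medians, 107 stayed within the SD between clones of that list's own median level and 25 went beyond it, an SD so small for the RGS list that 0.02 against 0.03 went beyond it. Without 12H or 15H 1 high-SOST clone remains, whose spread is taken to equal that of the low-SOST group. The small number of clones, and values near background for Pde4b and Rgs2, limit these comparisons, and the cause of these changes was not tested.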
